A study of Mus musculus with 4 samples.

Results

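The 9 genes Spi1, Irf8, Irf4, Maf, Gfi1, Runx1, Klf4, Klf2 and Id2, which encode transcription factors of the myeloid lineage, were followed in mouse bone marrow cultures grown towards macrophages in space and on the ground. They were chosen by symbol, and 24 of the 45037 probe sets tested carried 1 of these symbols alone in the platform annotation, 9 of 18193 genes so named. Both groups were marrow cells of C57BL/6 mice over 8 weeks old, pooled from 21 animals and cultured with 1.5 µg/ml macrophage colony-stimulating factor (M-CSF) in sealed glass barrels at 37 °C. Space flight barrels were carried on a space shuttle and ground control barrels were kept in a parallel temperature profile. Medium was added on culture day 6, day 5 of the flight, in all barrels. All were lysed on culture day 15, day 14 of the flight, and each array held RNA of 2 combined barrels, giving 2 arrays per group, for pools chosen by RNA quality. No sort of the cells is described, all came from 1 marrow pool, and fewer cells of a type cannot be told apart from less RNA per cell.

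PU.1, the product of Spi1, binds GGAA-containing sites in many myeloid genes, and its dose relative to its partners helps to set whether a progenitor becomes a monocyte, a granulocyte or a lymphocyte. IRF8 and IRF4 join PU.1 on composite sites, IRF8 favouring monocytes and dendritic cells over granulocytes, while GFI1 is a repressor that favours granulocytes. MAF, KLF4 and KLF2 act later, in maturing and resting monocytes and macrophages, RUNX1 acts from the stem cell onwards, and ID2 blocks E proteins by pairing with them.

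No member was called higher or lower in space flight. With limma over all probe sets, 0 of 24 member probe sets passed an adjusted p of 0.05, where 0% of all probe sets passed. At an unadjusted p under 0.05, 1 of the 24 passed, a Runx1 probe set that stood lower, against 8.74% of all probe sets. A log2 intensity of 6.40, the median over all probe sets, is called the dim limit here, and limma run on 1 probe set per gene above it called 5 genes higher and 2 lower, 0.0628% of the 11141 tested, and of the 7 members among these it called 0. Differences of member probe sets ran from −1.22 to 1.14 on the log2 scale, with a median of −0.09 against 0.0048 over all probe sets. Adjusted p-values from limma ran from 0.564 to 0.986.

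For 10 of the 24 probe sets, or 41.7%, the values of the 2 groups did not overlap, against 38.5% of all probe sets. Flight values were the higher ones for 5 of them (19.1% of all probe sets) and the lower ones for 5 (19.4% of all). Of the 6 genes with more than 1 probe set, 5 had probe sets on both sides of 0, and Irf4 alone had both below it. Replicate arrays were less alike in flight: the median gap between the 2 space flight arrays was 0.89 over member probe sets, against 0.28 between the ground control arrays. Over all probe sets the SD of the signed gap was 0.94 in space flight and 0.73 in ground control. This is another measure than the median for members, so the 2 cannot be compared in size. Of the 24 probe sets, 5 had a mean below the dim limit: both of Irf4, the single one of Gfi1, and 2 of Maf. Of these 5, 1 had both flight values higher and 2 had both lower, against 3925 and 3689 of all 22518 dim probe sets.

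**Figure D1:**
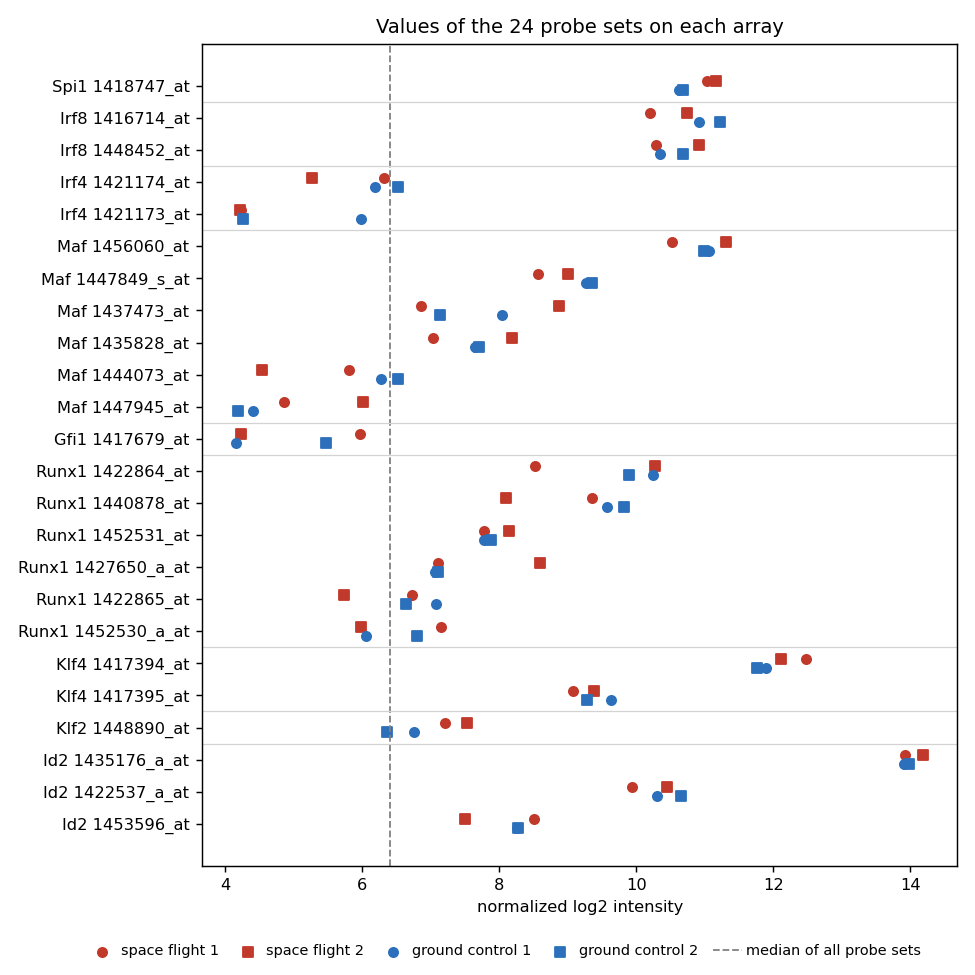
Normalized log2 intensity (horizontal axis) of each of the 24 probe sets on each of the 4 arrays, red for space flight and blue for ground control, with circles for replicate 1 and squares for replicate 2. The dashed line marks the dim limit of 6.40; the red points are mostly farther apart than the blue ones.

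**Figure D2:**
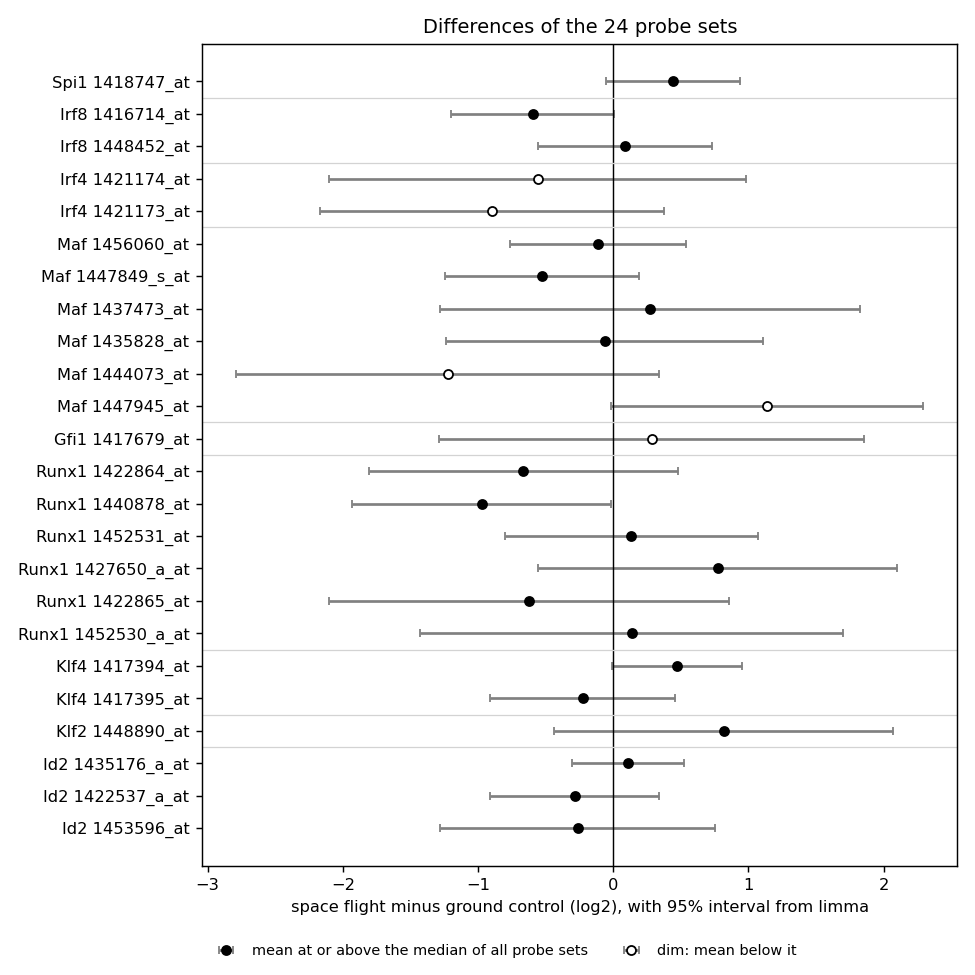
Difference of group means (space flight minus ground control, log2) of each probe set with its 95% interval from limma, filled for probe sets at or above the dim limit and open for the 5 below it. The interval leaves out 0 for 1 of the 24, Runx1 1440878_at.

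Spi1 was measured by 1 probe set, 1418747_at, at 11.04 and 11.16 in space flight and 10.62 and 10.69 in ground control (normalized log2 intensity). Both flight values were the higher ones. The difference was 0.44 ± 0.22 (SE, n = 2 arrays per group; 1.36-fold, limma adjusted p = 0.615), with a 95% interval from −0.05 to 0.94. When the arrays were only shifted to 1 median, which moved the median of all probe sets to −0.11, it was 0.19. Of 67 other factor genes above the dim limit, those whose centred values over the 4 arrays lay nearest to Spi1 were Klf10, Tal1 and Id1, at Euclidean distances of 0.22, 0.22 and 0.24 log2 units. Their own differences were 0.40, 0.36 and 0.44 (limma adjusted p = 0.678, 0.797 and 0.816). Some of the 67 must be nearest, and how many of all genes lie within such distances was not counted. The distances therefore cannot show whether these factors follow Spi1.

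For Irf8, the 2 probe sets did not give the same picture. On 1416714_at the values were 10.20 and 10.75 in space flight and 10.91 and 11.23 in ground control, both flight values being lower, with a difference of −0.60 ± 0.27 (SE, n = 2; limma adjusted p = 0.576) that was −0.32 without space flight replicate 1. On 1448452_at they were 10.28 and 10.92 against 10.35 and 10.68, the groups overlapped, and the difference was 0.09 ± 0.28 (SE, n = 2; limma adjusted p = 0.959), turning to −0.17 with a shift to 1 median and to −0.23 without space flight replicate 2. Both probe sets are annotated to the same sequence record.

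The ratio of the deposited intensities of these 2 probe sets does not depend on how an array was scaled. It was 0.948 and 0.889 in the flight cultures and 1.46 and 1.48 in the ground cultures, so that replicates lay close together and the groups apart. This ratio was examined after its values had been seen. The limma fit used the normalized log2 values, which do depend on the normalization and the pseudocount, and no intensity trend. Over the 4869 genes with 2 probe sets above the dim limit, the log2 ratio for Irf8 differed by −0.69 ± 0.31 (SE, n = 2; limma adjusted p = 0.647). The groups stood apart for 39.9% of such genes. Among the 5 members in that fit, Irf8, Id2, Klf4 and Maf stood apart and Runx1 overlapped, so a ratio apart was not particular to Irf8. Of these 5 members, 0 passed at an adjusted p of 0.05 (0% of the 4869) and 0 at an unadjusted p under 0.05 (7.56%).

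Irf4, which B cells, plasma cells and some macrophages use, gave no level clear of the dim limit. Probe set 1421174_at had 6.32 and 5.27 in space flight and 6.19 and 6.52 in ground control, overlapping. Probe set 1421173_at had 4.23 and 4.22 in space flight and 5.98 and 4.26 in ground control, where an intensity of 0 would give about 4 before normalization. On 3 of the 4 arrays it thus lay near that floor, and ground control replicate 1 alone stood above. It is counted among those with both flight values lower, though ground control replicate 2, at 4.26, was barely higher than the flight arrays. Differences were −0.56 ± 0.68 and −0.90 ± 0.56 (SE, n = 2; limma adjusted p = 0.856 and 0.703), and without ground control replicate 1 the second was −0.037. The first was −0.037 without space flight replicate 2.

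The macrophage factor gene Maf had 6 probe sets, of which 4 were above the dim limit. The brightest, 1456060_at, had 10.52 and 11.31 in space flight, on either side of 11.07 and 10.99 in ground control, a difference of −0.11 ± 0.28 (SE, n = 2; limma adjusted p = 0.945) that turned to 0.28 without space flight replicate 1. Probe set 1447849_s_at had 8.56 and 9.005 in space flight, both below 9.27 and 9.35 in ground control, a difference of −0.53 ± 0.32 (SE, n = 2; limma adjusted p = 0.692) that was −0.30 without space flight replicate 1.

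Space flight replicate 2 was above replicate 1 on each of the 4 brighter Maf probe sets, by 0.44 to 2.02. The widest gap was on 1437473_at, at 6.86 and 8.88 in flight against 8.05 and 7.14 on the ground, and its difference of 0.27 turned to −0.78 without space flight replicate 2 and to −0.18 without ground control replicate 2. Probe set 1435828_at, at −0.06, turned to 0.50 without space flight replicate 1. The 2 dim probe sets had the extreme differences of all members, −1.22 on 1444073_at and 1.14 on 1447945_at, in opposite directions. Their size moved with the pseudocount, to −1.91 and 2.57 with 1 and to −0.62 and 0.46 with 64, and without space flight replicate 2 they were −0.59 and 0.54.

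Gfi1, the granulocyte repressor gene, was dim on all 4 arrays. Its probe set 1417679_at had 5.97 and 4.23 in space flight and 4.17 and 5.47 in ground control. In each group 1 array lay near the floor of about 4, and the difference of 0.28 ± 0.69 (SE, n = 2; limma adjusted p = 0.942) ran from −0.59 without space flight replicate 1 to 1.11 without space flight replicate 2. It also turned to −0.39 without ground control replicate 1. In the same libraries the neutrophil markers were bright: the summed intensity of the 10 on the array was 78356 and 108443 in space flight and 38609 and 42707 in ground control, with 9 of the 10 above the dim limit. Their part in any result for Gfi1 was not tested.

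Runx1, which encodes the DNA-binding subunit of core binding factor, had 6 probe sets, 3 with differences above 0 and 3 below. Probe set 1422864_at had 8.53 and 10.28 in space flight around 10.24 and 9.90 in ground control, so only space flight replicate 1 was low; its difference of −0.67 ± 0.50 (SE, n = 2; limma adjusted p = 0.753) turned to 0.21 without that array. Probe set 1440878_at had 9.36 and 8.11 in space flight, both below 9.58 and 9.83 in ground control. Here space flight replicate 2 was the low one, and the difference was −0.97 ± 0.42 (SE, n = 2; 95% interval −1.93 to −0.01; limma adjusted p = 0.564). It was −0.35 without that array and −1.59 without space flight replicate 1.

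In contrast, 1427650_a_at had 7.11 and 8.60 in space flight, the first barely above the 7.06 and 7.11 of ground control, a difference of 0.77 ± 0.58 (SE, n = 2; limma adjusted p = 0.753) that was 0.030 without space flight replicate 2. Runx1 thus had 1 probe set with both flight values above and 1 with both below, and on each of them space flight replicate 2 lay farthest from the ground cultures. The 3 others overlapped, at −0.62 on 1422865_at, which was −0.13 without space flight replicate 2, 0.13 on 1452531_at and 0.14 on 1452530_a_at; the last turned to −0.44 without space flight replicate 1 and to −0.24 without ground control replicate 1. Probe set 1452531_at turned to −0.043 with a shift to 1 median and to −0.052 without space flight replicate 2.

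Klf4, a zinc finger factor of monocyte differentiation, had 12.48 and 12.11 in space flight and 11.89 and 11.76 in ground control on 1417394_at. Both flight values were higher, and the difference was 0.47 ± 0.21 (SE, n = 2; 1.38-fold, limma adjusted p = 0.582), with a 95% interval from −0.01 to 0.95. It was 0.23 with a shift to 1 median and 0.28 without space flight replicate 1. Its other probe set, 1417395_at, annotated to the same sequence record, had 9.07 and 9.39 against 9.63 and 9.28, overlapping, at −0.23 ± 0.30 (SE, n = 2; limma adjusted p = 0.870), which ran from −0.40 to −0.056 with 1 array left out. The deposited intensity of the first over the second was 10.6 and 6.86 in flight and 4.73 and 5.88 on the ground.

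Klf2, which keeps leukocytes in a resting state, had 7.21 and 7.53 in space flight and 6.75 and 6.36 in ground control on its probe set 1448890_at. Both flight values were higher, while ground control replicate 2 lay below the dim limit. The difference, 0.82 ± 0.55 (SE, n = 2; 1.76-fold, limma adjusted p = 0.726), had a 95% interval from −0.44 to 2.07, and with 1 array left out it ran from 0.62 to 0.97.

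Spi1, Klf4 and Klf2 were the members whose brightest probe set stood above ground control on both arrays (3 of 9, against 21.5% of all genes). The DNA before the start of both Klf genes is shown because they are of 1 family and their differences had the same sign there. RefSeq promoter windows in build GRCm38.p6 were matched for 7 members; Spi1 and Maf had none in the table used. The 250 bases before the start are printed 5′ to 3′ on the gene's strand, for Klf2 at chr8:72318812-72319061 (plus) and for Klf4 at chr4:55532476-55532725 (minus). Capitals mark the GC box GGGCGG on either strand, to which SP and KLF factors bind, and in Klf2 also CTAAATTTAG, a match to the consensus of the MEF2 factors.
Klf2: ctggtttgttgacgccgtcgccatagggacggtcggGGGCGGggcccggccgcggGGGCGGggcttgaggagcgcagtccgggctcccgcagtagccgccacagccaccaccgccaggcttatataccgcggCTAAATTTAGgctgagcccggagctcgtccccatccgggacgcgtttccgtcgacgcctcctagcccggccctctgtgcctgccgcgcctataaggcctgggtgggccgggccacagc
Klf4: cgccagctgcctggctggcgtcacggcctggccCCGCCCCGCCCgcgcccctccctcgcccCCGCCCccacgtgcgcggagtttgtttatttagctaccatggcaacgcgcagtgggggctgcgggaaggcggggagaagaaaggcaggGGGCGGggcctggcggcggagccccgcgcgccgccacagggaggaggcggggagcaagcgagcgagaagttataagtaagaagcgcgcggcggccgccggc

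The GC box was found 2 times in the Klf2 window and 4 times, with 2 copies overlapping, in that of Klf4, and in 5 of the 10 member windows, against 32.7% of all 32851 windows. The MEF2 consensus, which begins 118 bases before the Klf2 start, was found in 1 of the 10 member windows and in 2.92% of all. The PU.1 site GAGGAAG was in 0 of the 10 (10.6% of all) and the RUNX core TGTGGT in 0 of the 10 (14.0% of all), each searched on both strands. Such matches describe the letters alone.

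Id2, the inhibitor of E proteins, had 3 probe sets and no group separation on any of them. The brightest, 1435176_a_at, had 13.92 and 14.19 in space flight and 13.91 and 13.98 in ground control, 0.11 ± 0.18 (SE, n = 2; limma adjusted p = 0.905), and turned to −0.024 without space flight replicate 2. Its 95% interval, −0.30 to 0.52, was the narrowest of the 24. The 2 others were at −0.29 ± 0.28 on 1422537_a_at and −0.26 ± 0.45 on 1453596_at (SE, n = 2; limma adjusted p = 0.806 and 0.908), the latter turning to 0.24 without space flight replicate 2 and the former −0.037 without space flight replicate 1.

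**Figure D3:**
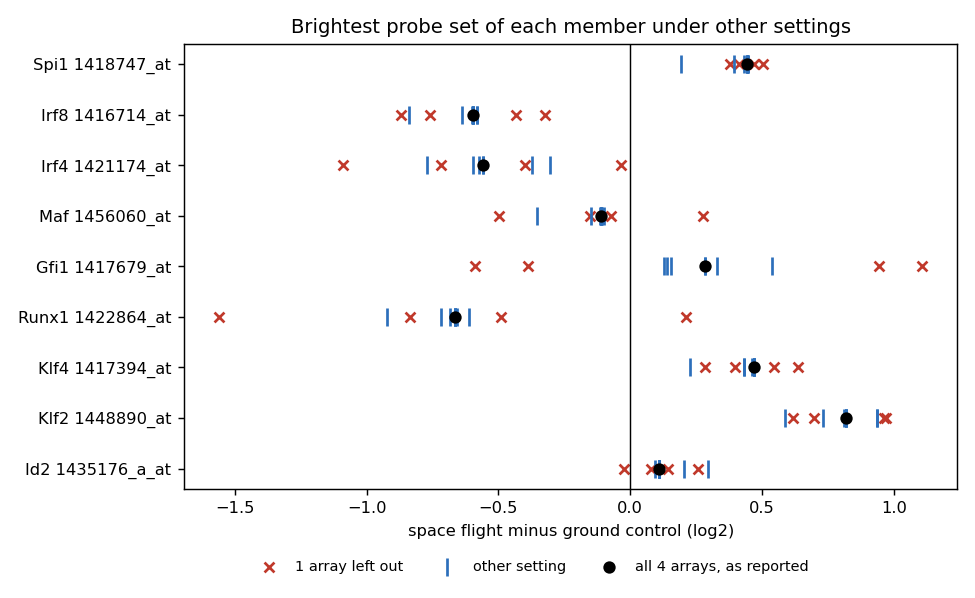
Difference (space flight minus ground control, log2) of the brightest probe set of each member with all 4 arrays (black), with 1 array left out (red crosses) and under other settings (blue bars). Spi1, Irf8, Irf4, Klf4 and Klf2 stayed on 1 side of 0, while Maf, Gfi1, Runx1 and Id2 crossed it when an array was left out.

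Relatives of the members by family were read on their brightest probe set, where 42 of 44 had one with a single symbol. None was called by limma over all probe sets, where 0% of genes were called; at an unadjusted p under 0.05, 4 were higher and 4 lower, against 10.1% of all genes by brightest probe set. Groups did not overlap for 22 of the 42, 13 above and 9 below, against 41% of all genes, and the median difference was 0.25 against 0.03. Of ETS genes, Elk3 stood at −0.97 ± 0.27, Elf1 at −0.64 ± 0.25 and Ets2 at 0.45 ± 0.28 (SE), which was 0.089 without space flight replicate 1 but 0.80 when replicate 2 of the flight group was left out instead. Among KLF genes, the erythroid factor gene Klf1 stood at 1.36 ± 0.52, Klf9 at −0.53 ± 0.23 and Klf16 at 0.78 ± 0.34 (SE); Klf9 was −0.25 without space flight replicate 2.

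Small MAF genes, whose products lack an activation domain, stood at 0.60 ± 0.20 for Mafg, 0.60 ± 0.28 for Maff and 0.34 ± 0.41 for Mafk (SE), the last turning to −0.028 without space flight replicate 1 and to −0.21 without ground control replicate 2. With a shift to 1 median Mafg and Maff were both at 0.37. Gfi1b, the relative of Gfi1 used by red cell and platelet precursors, stood at 1.48 ± 0.59, Runx1t1 at 0.92 ± 0.67 and Cbfb, the partner of RUNX1, at −0.24 ± 0.24 (SE), which was 0.026 without space flight replicate 2. Irf9, Irf1 and Irf7 stood at −0.57 ± 0.47, 0.28 ± 0.25 and 0.72 ± 0.75 (SE), Irf7 turning to −0.14 and Irf1 falling to 0.10 without ground control replicate 1. The E protein gene Tcf12 stood at −0.56 ± 0.20, Id4 at 0.94 ± 0.64 and Id1 at 0.44 ± 0.44 (SE). Irf9 was −0.068 without space flight replicate 1, Runx1t1 0.37 without ground control replicate 1, and Id4 and Id1 0.26 and 0.23 without space flight replicate 2.

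Of 30 other myeloid and progenitor factor genes on the array, 0 were called by limma, with 6 higher and 2 lower at an unadjusted p under 0.05, which 10.1% of all genes passed, and a median difference of 0.19 against 0.03 over all genes. Cebpb, a C/EBP factor of granulocytes and activated macrophages, had 13.27 and 12.88 in space flight and 11.90 and 12.00 in ground control, at 1.12 ± 0.21 (SE, n = 2; limma adjusted p = 0.257). Nr4a1 stood at 2.33 ± 0.55 and Mitf, which macrophages and osteoclasts use, at −0.87 ± 0.20 (SE, n = 2; limma adjusted p = 0.360 and 0.354).

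Genes described as PU.1 targets numbered 18, of which limma called 0, with 2 higher and 7 lower at an unadjusted p under 0.05, against 10.1% of all genes in either direction. Both flight values were below both ground values for 10 of them (19.6% of all genes) and above for 3 (21.5%), and the median was −0.30 against 0.03 over all genes. The list shares 6 genes with the 10 macrophage markers on the array: of these Csf1r, Itgam, Cd68 and Lyz2 (which turned under other scalings) had both flight values lower, Fcgr1 had both higher, and Cd14 overlapped. Of the 10 markers themselves 6 had both flight values lower and 2 higher, and their part in the values of this list was not tested. The oxidase subunit gene Cybb had 11.32 and 11.28 in space flight and 12.38 and 12.78 in ground control, at −1.28 ± 0.21 (SE, n = 2; limma adjusted p = 0.219). Csf2rb stood at −1.00 ± 0.17 and the inhibitory Fc receptor gene Fcgr2b at −0.83 ± 0.20 (SE, n = 2; limma adjusted p = 0.237 and 0.364). The highest of the 18 were the neutrophil granule genes Elane, at 1.72, and Mpo, at 1.42, which are also among the neutrophil markers above.

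Targets of IRF8 and IRF4, GFI1, and KLF2 and KLF4 were counted at an unadjusted p under 0.05, which 10.1% of all genes passed. Of 11 IRF8 and IRF4 targets on the array, 2 were higher and 1 lower, with a median of 0.11. Cd74 stood at 0.95 ± 0.25 and Il12b, which was dim, at 1.79 ± 0.65 (SE), and Cybb and Fcgr1 are shared with the PU.1 list. The GFI1 repressed genes, 8 on the array, had 2 higher, Cdkn1a at 1.37 ± 0.24 and Egr1 at 1.33 ± 0.39, and 0 lower, with a median of 0.36; Egr2 stood at −0.49 ± 0.28 (SE). Of 7 KLF2 and KLF4 targets, 0 were higher and 1 lower, Mrc1 at −1.47 ± 0.47, with a median of −0.11; Thbd stood at −0.71 ± 0.35 and S1pr1 at 0.91 ± 0.46 (SE). Without space flight replicate 1, Egr1 was 0.83, Mrc1 −0.92 and Thbd −0.33, and without space flight replicate 2 Egr2 was −0.24; Il12b was 0.87 with a pseudocount of 64. Limma called 0 genes of these 3 lists with all 4 arrays and no replicate block. Counts of the lists are not independent. Cd14 of the KLF2 and KLF4 list is also a PU.1 target, and Cd14 and Mrc1 are macrophage markers. Id1, Meis1, Hoxa9, Egr1 and Egr2 of the GFI1 list are also among the relatives or other factors above.

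**Figure D4:**
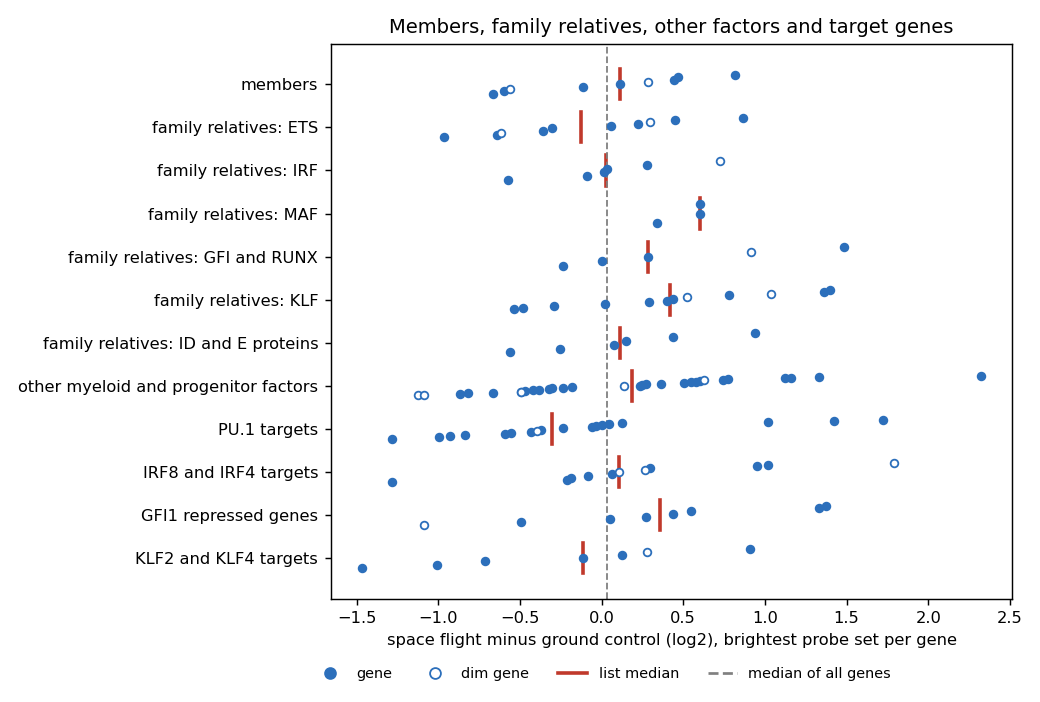
Differences (space flight minus ground control, log2) of the brightest probe set of each gene, by list, open where the gene is dim; red bars are list medians and the dashed line is the median of all genes, 0.03. Of the lists drawn, which leave out the cell type markers, the PU.1 targets have the lowest median, −0.30, and the small MAF genes the highest, 0.60, over 3 genes.

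The label of the cultures was checked against markers. Macrophage markers were bright, 9 of 10 above the dim limit, with summed intensities of 114028 and 106187 in space flight and 130387 and 133249 in ground control; Lyz2 stood at −0.06 ± 0.16, turning to 0.025 to 0.23 under other scalings, and Csf1r at −0.37 ± 0.16 (SE), which was −0.091 without normalization of the deposited values and −0.24 under cyclic loess. Of the neutrophil markers S100a8 stood at 0.79 ± 0.17 and S100a9 at 1.36 ± 0.30 (SE), the latter 0.83 without space flight replicate 2. The erythroid markers, 5 of 5 above the dim limit, summed to 6198 and 11653 in space flight and 1483 and 3172 in ground control. Slc4a1 stood at 2.17 ± 0.45 and Alas2 at 1.23 ± 0.41 (SE). The erythroid sums were mostly Slc4a1, with a mean of 11.82 on the log2 scale, against 8.08 for Alas2, the next brightest. Of the 5 erythroid markers, 4 had both flight values higher, and Epor overlapped, at −0.34. Markers of dendritic cells (2 of 8 above the limit), B and plasma cells (2 of 5), T and NK cells (1 of 5), mast cells and basophils (2 of 5) and endothelium (1 of 4) were mostly dim, and those of stroma (3 of 5) and megakaryocytes (4 of 4) were not. Still, the stromal markers summed to only 289 and 636 in space flight and 565 and 619 in ground control, and Col3a1 had a mean of 6.48. Of the megakaryocyte markers Pf4 had a mean of 12.69 and the others ran from 6.66 to 7.87. RNA integrity numbers were 3 in all pools. The RNA amounts listed for the pools were 21.2 and 25 ng in space flight and 12.5 and 24.1 ng in ground control, and could not be matched to replicate numbers. For the Gapdh control probe sets the 3′ intensity over the 5′ intensity was 4.09 and 15.2 in space flight replicates 1 and 2, against 4.13 and 3.33 on the ground. The same ratio was 3.08 and 4.91 against 2.30 and 2.84 for Actb, and 5.50 and 3.47 against 4.96 and 7.84 for the transferrin receptor Tfrc. The part of these differences in the members' values was not tested.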

How the data were processed

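Per the labels' protocols, RNA was amplified in 2 rounds, biotin-labelled and hybridised to Affymetrix mouse arrays. The deposited values are intensities on a linear scale, 1 per probe set and array, from GCOS per the submitters' processing notes (version not stated; summarising algorithm not given in the sources used here). The trimmed mean (2% from each end) was 500.004 on each array. From 45101 probe sets, 64 controls were left out. Log2(intensity + 16) was computed; array medians differed by up to 0.385, so arrays were quantile normalized. A fold change on this scale understates changes of dim genes. Limma 3.58.1 in R 4.3.3 (lmFit, eBayes with an intensity trend, two-sided, Benjamini-Hochberg over 45037 probe sets, threshold 0.05) compared the groups. Its code was run on simulated independent normal values with the SDs of this fit, which cannot show how well limma holds for these arrays. Residual degrees of freedom were 2 and moderated ones 8.55; an exact test of 2 against 2 cannot go below p = 0.333. The limma p-values set the group difference against a variance estimated partly from these culture pools and partly from all probe sets. All pools came from 1 marrow pool, so variation between animals is not covered, and the number of arrays limits the precision.

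Symbols came from the platform annotation: 34945 probe sets had 1, 932 several and 9160 none. A genome build for the probe sets is not given in the sources used here. The ± values are standard errors. Members and gene lists were chosen with earlier results of these data known. Besides the members, the text names the 3 genes of smallest p in each list, the 2 brightest of 3 marker lists, and the 3 factors nearest to Spi1; Elane and Mpo were those named with their values for being highest in their list, a choice made after the values were seen. A further gene list is not reported here. Alternatives were 3 other scalings, pseudocounts of 1 and 64, no trend, no dim probe sets, 1 probe set per gene, a replicate block and each array left out.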

Additional observations from a re-analysis of the deposited data

How the results depend on the processing

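Over all probe sets the counts called higher and lower, 0 and 0, became 4 and 0 with values as deposited, 6 and 1 with a pseudocount of 1, 10 and 1 without dim probe sets, and 5 and 2 with 1 probe set per gene above the dim limit; with 1 array left out they ran from 0 to 0. With the replicate number as a replicate block they became 118 and 113 of 45037 probe sets, and the moderated degrees of freedom rose from 8.55 to 19.6. The deviations of same-numbered arrays correlated at 0.03, so the numbers were not taken to pair the samples. Of 38 other named genes refitted, 7 passed with this block and 0 under the other settings. With the block, limma adjusted p was 0.018 for Cebpb, 0.0093 for Cybb, 0.016 for Csf2rb, 0.0052 for Cdkn1a, 0.0498 for S100a8, 0.0036 for S100a9 and 4.92e-05 for Slc4a1. Most of the 38 were named for the smallest p of their list, so their share passing cannot be set against that of all probe sets. Of the member probe sets 0 were called under any of these settings. Of the 24, 14 kept their sign under each alternative and 10 did not, 8 of them only when an array was left out. Leaving out 1 array moved the difference by over 1.5 times for 22 of the 24, all but those of Spi1 and Klf2. With a shift to 1 median Irf8 1448452_at stood at −0.17, Runx1 1452531_at at −0.043 and Lyz2 at 0.025. Lyz2 was at 0.063 under cyclic loess and 0.23 without normalization of the deposited values. With 1 array left out, Irf8 1448452_at ran from −0.23 to 0.41, Maf 1456060_at from −0.50 to 0.28, 1437473_at from −0.78 to 1.28 and 1435828_at from −0.67 to 0.50, Gfi1 from −0.59 to 1.11, Runx1 1422864_at from −1.56 to 0.21, 1452531_at from −0.052 to 0.31 and 1452530_a_at from −0.44 to 0.76, Id2 1435176_a_at from −0.024 to 0.26 and 1453596_at from −0.76 to 0.24, Irf7 from −0.14 to 1.61, Mafk from −0.21 to 0.89 and Cbfb from −0.51 to 0.026. A lone array is then assumed to vary like the other group. The dim limit is a median over probe sets, and whether probe sets below it stood above the arrays' background was not tested.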
